A study of Mus musculus with 48 samples.

Results

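The response of forelimb bud mesoderm in the first 3 h after cadmium was examined in 3 arrays from embryos of cadmium-injected dams and 3 arrays from embryos of vehicle-injected dams, 6 of the 48 arrays of a study of 2 agents that cause a similar forelimb defect in mice. All dams were injected into the peritoneum on gestation day 9.5. The cadmium dams received cadmium sulfate at 4 mg/kg in phosphate-buffered saline (PBS) and the control dams received PBS alone. Right forelimb buds were collected 3 h later, and mesoderm was parted from ectoderm with trypsin before RNA was extracted. The labels speak of mesoderm pooled over several litters, whereas the design text calls the RNA extracts non-pooled. Neither says which arrays share litters, so that the spread between arrays may be technical. The p-values below rest on a spread estimated for each gene over all 48 arrays, with a weight for each comparison, and not on these 6 arrays alone. Strain is not given in the sources used here. The other arrays that were compared with these came from 3 h ectoderm and 12 h mesoderm of cadmium and PBS embryos, and from 3 h mesoderm after acetazolamide at 400 mg/kg or its vehicle, vegetable oil. RNA was measured on the Affymetrix MG-U74Av2 array, whose probe sets each read 1 stretch of a transcript.

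The deposited value of a probe set is a ratio of its array to vehicle arrays matched for tissue and time, so a value of 1 means no difference from the PBS arrays, and PBS array 3 is 1 for each probe set. PBS arrays 1 and 2 sum to 2 for each probe set, so the PBS values mirror each other around 1 by construction. Groups described below as separate are therefore not set against 3 free PBS values. No expression level is kept. The mesoderm label could therefore not be checked against marker levels, and it is not known which genes stood above background. All 10855 probe sets that name 1 gene were used, of 12488 on the array, and were averaged into 8252 genes. Differences below are log2 differences, cadmium minus PBS, with their SE from limma, and n = 3 arrays in each group throughout. The SE uses the spread over all arrays of the study, so it can be wider or narrower than a gene's own arrays would give. In such bulk samples, fewer cells of a type and less RNA per cell cannot be told apart.

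Cadmium is a toxic metal that binds thiol groups in proteins and displaces zinc. Cells exposed to it are known to make metallothioneins, small proteins that bind metals and are switched on by the zinc-sensing factor Mtf1, and to raise heat shock proteins and haem oxygenase 1, which protect against unfolded proteins and oxidants. The early limb bud is a mesoderm core under an ectoderm sheet whose apical ridge secretes Fgf8, while posterior mesoderm secretes Shh and sets the order of the digits.

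At 3 h no gene passed limma's test between cadmium and PBS mesoderm. With Benjamini-Hochberg adjustment over 8252 genes, 0 were called (0%), and the smallest adjusted p was 0.567. At an unadjusted p under 0.05 there were 255 genes, 114 higher after cadmium (1.38% of all genes) and 141 lower (1.71%). All 3 cadmium arrays lay above all 3 PBS arrays for 450 genes (5.45%) and below them for 345 (4.18%). The 95% interval of the difference reached 0.22 to either side for the median gene. It lay wholly within 1 on the log2 scale, a 2-fold difference either way, for 8219 genes (99.6%), and within 0.5 for 7222 (87.5%). Only Hspa1b had an estimate beyond 1, and 14 genes had one beyond 0.5. With PBS array 1 left out, 13 genes were called, 4 higher and 9 lower, with the remaining PBS array of the first denominator assumed to vary like the others. Dnajb1, Xbp1, Hspa1b, Herpud1 and Cirbp, all described below, were among them, with adjusted p of 0.00123, 0.00123, 0.0152, 0.00857 and 0.00857. Leaving out any of the other 5 arrays gave 0 calls. Leaving out PBS array 3 gives the same values as leaving out cadmium array 3, because those 2 share a denominator that no other array has. A value that stands out on cadmium array 3 below is therefore one of that pair, and cannot be placed on the cadmium or the PBS array.

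**Figure D1:**
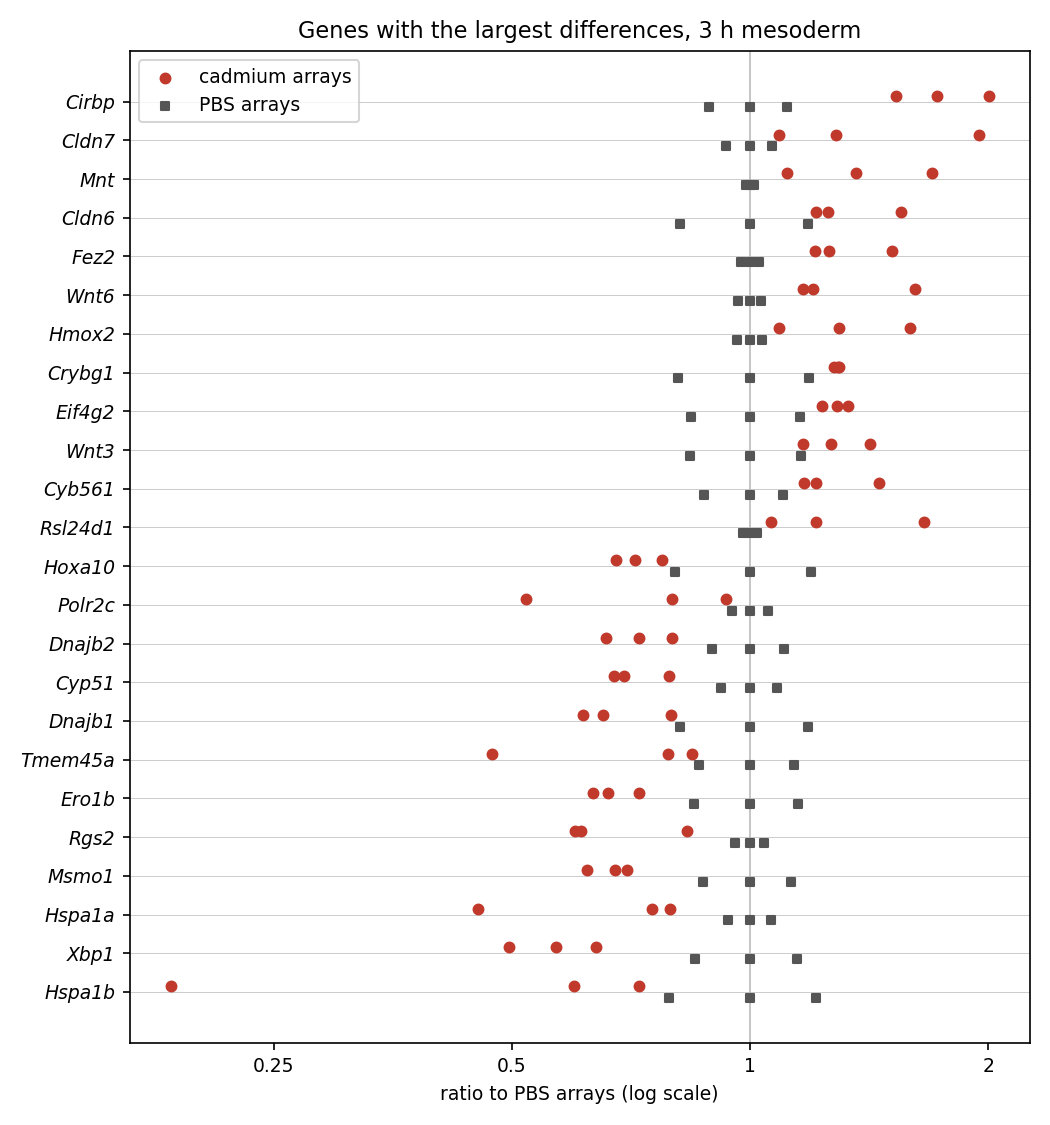
Deposited ratio to PBS arrays (log scale) in 3 h mesoderm for the 12 genes with the largest higher and the 12 with the largest lower cadmium values among genes with an unadjusted p under 0.05 whose arrays did not overlap; red circles are the 3 cadmium arrays and grey squares the 3 PBS arrays. Cirbp has the highest cadmium values on average, at 1.53 to 2.00, and the single lowest point is Hspa1b on cadmium array 3, at 0.185.

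Several stress-protein genes were among the lowest after cadmium, lower and not higher than in PBS embryos, though none passed the test. Hspa1b, which encodes an inducible Hsp70 chaperone that refolds damaged proteins (chromosome 17, 34956429 to 34959238, RefSeq on GRCm38.p6), had ratios of 0.600, 0.724 and 0.185 on the cadmium arrays, against 0.790, 1.21 and 1 on the PBS arrays. The groups did not overlap, and cadmium array 3 was far below the other two. The log2 difference was -1.19 ± 0.36, which is 2.28-fold lower, and without cadmium array 3 it was -0.57. Its neighbour and near-identical copy Hspa1a (chromosome 17, 34969359 to 34972156) had 0.793, 0.752 and 0.453 on the cadmium arrays, against 1.06, 0.939 and 1 on the PBS arrays. That difference was -0.63 ± 0.22, again with cadmium array 3 lowest, and it was -0.37 without that array. The deposited values do not show how far each probe set separates the 2 copies.

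Dnajb1, the Hsp40 partner that hands clients to Hsp70 (chromosome 8, 83608175 to 83612653), had 0.795, 0.652 and 0.615 on the cadmium arrays, against 0.817, 1.18 and 1 on the PBS arrays. The groups just failed to overlap, and the difference was -0.53 ± 0.14 (limma adjusted p 0.885). Dnajb2, another Hsp40 protein that is not on the heat shock list, was at 0.723, 0.658 and 0.797 on the cadmium arrays, against 0.895, 1.11 and 1 on the PBS arrays, a difference of -0.46 ± 0.16. Hsph1, an Hsp110 that recharges Hsp70, overlapped between the groups at -0.06 ± 0.21. Over the 19 measured genes of the heat shock list, 3 were lower at an unadjusted p under 0.05 (1.71% of all genes were) and 0 higher, and the list median was -0.01 beside 0.00 for all genes. The 3 lower genes were Hspa1b, Hspa1a and Dnajb1.

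The promoters of the Hsp70 pair are shown because heat shock factor, the known regulator of these genes, binds inverted GAA units. The 250 bases before each start (RefSeq, GRCm38.p6, minus strand, chr17:34959239-34959488 and chr17:34972157-34972406) follow 5′ to 3′ with the letters GAANNTTC in capitals. Both strands were searched, and the motif reads the same on each.
Hspa1b: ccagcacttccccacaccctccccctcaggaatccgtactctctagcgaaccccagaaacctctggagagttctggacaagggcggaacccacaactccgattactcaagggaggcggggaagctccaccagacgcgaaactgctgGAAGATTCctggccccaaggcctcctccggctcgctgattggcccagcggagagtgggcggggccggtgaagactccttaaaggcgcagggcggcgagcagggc
Hspa1a: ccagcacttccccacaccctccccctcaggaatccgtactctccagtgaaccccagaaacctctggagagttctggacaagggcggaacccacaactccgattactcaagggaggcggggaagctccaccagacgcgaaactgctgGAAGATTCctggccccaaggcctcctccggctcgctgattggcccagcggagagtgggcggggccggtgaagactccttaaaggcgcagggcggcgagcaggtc
The 2 windows differ at 3 of 250 bases (98.8% identity), and each holds 1 match, 104 to 97 bases before the start. Of 32851 promoter windows of the same length, 6.69% hold the motif, and these letters are not in either Dnajb1 window.

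Xbp1 and Herpud1, genes of the unfolded protein response, were lower on the cadmium arrays as well, again without passing the test. Xbp1, the transcription factor whose spliced form drives chaperone and degradation genes of the endoplasmic reticulum (chromosome 11, 5520641 to 5525993), had 0.638, 0.569 and 0.495 on the cadmium arrays, against 0.852, 1.15 and 1 on the PBS arrays. All cadmium arrays were lower than any PBS array, by -0.81 ± 0.18 on the log2 scale, which is 1.76-fold lower. Its adjusted p of 0.567 in limma was the smallest of any gene. The array does not report splicing.

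Herpud1, a membrane protein of endoplasmic reticulum protein degradation (chromosome 8, 94386429 to 94395371), was at 0.782, 0.764 and 0.703 on the cadmium arrays, against 0.947, 1.05 and 1 on the PBS arrays. The 3 cadmium arrays were close together and below each PBS array, at -0.42 ± 0.11 (limma adjusted p 0.885). Ero1b, which oxidises thiols during folding in the endoplasmic reticulum and is not on the list counted below, had 0.632, 0.725 and 0.662 on the cadmium arrays, against 0.849, 1.15 and 1 on the PBS arrays, a difference of -0.56 ± 0.24. Other genes of the pathway had values above 0. Slc7a5, an amino acid transporter that Atf4 induces, was at 1.23, 1.27 and 1.25 on the cadmium arrays, against 0.986, 1.01 and 1 on the PBS arrays. Its difference was 0.32 ± 0.15, that of the sensor Atf6 was 0.17 ± 0.08 (0.12 without PBS array 1), and that of Atf4 itself 0.33 ± 0.20. Ddit3 (CHOP), a late factor of the response, was at -0.08 ± 0.13 with overlapping arrays. Of 24 measured genes on the list, 2 were higher (1.38% of all genes were) and 2 lower (1.71%) at an unadjusted p under 0.05. The list median was -0.04 beside 0.00 for all genes.

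The Herpud1 window is printed because it holds the endoplasmic reticulum stress element II (ERSE-II), in capitals (RefSeq, GRCm38.p6, plus strand, chr8:94386179-94386428).
Herpud1: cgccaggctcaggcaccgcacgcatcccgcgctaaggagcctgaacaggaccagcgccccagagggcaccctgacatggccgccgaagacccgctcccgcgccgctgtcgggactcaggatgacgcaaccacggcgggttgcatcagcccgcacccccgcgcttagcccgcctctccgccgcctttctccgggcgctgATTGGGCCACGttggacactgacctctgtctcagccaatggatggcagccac
The match lies 52 to 42 bases before the start, and 0.0304% of promoter windows, 10 of 32851, hold a match to ERSE-II on either strand. No match is in the Xbp1 window.

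Cirbp was the gene with the largest higher value. It encodes a cold-inducible RNA-binding protein that is known to rise when temperature falls mildly (chromosome 10, 80165990 to 80172786). Cirbp had 1.72, 1.53 and 2.00 on the cadmium arrays, against 1.11, 0.888 and 1 on the PBS arrays. The lowest cadmium array stood well above the highest PBS array, and the difference was 0.81 ± 0.20, or 1.75-fold (limma adjusted p 0.885). Leaving out single arrays kept it between 0.71 and 0.93. The window before the first of the 2 starts in the RefSeq promoter table, a start inside the annotated span, is shown with the octamer TCCCCGCC, described as a mild-cold-responsive element, in capitals (RefSeq, GRCm38.p6, plus strand, chr10:80167589-80167838).
Cirbp: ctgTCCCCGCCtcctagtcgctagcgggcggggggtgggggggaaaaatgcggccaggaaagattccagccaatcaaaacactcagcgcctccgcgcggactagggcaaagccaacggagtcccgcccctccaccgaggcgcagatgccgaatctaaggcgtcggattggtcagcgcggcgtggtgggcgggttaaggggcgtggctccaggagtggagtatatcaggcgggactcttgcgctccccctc
The match lies 247 to 240 bases before that start. The octamer is in 4.64% of the promoter windows on either strand, and is not in the window of the other Cirbp start.

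The same stress genes were set beside the 3 h arrays of the other tissue and agent. In 3 h ectoderm, cadmium against PBS gave -0.44 ± 0.17 for Dnajb1, -0.37 ± 0.22 for Xbp1 and -0.33 ± 0.26 for Hspa1a. It gave -0.21 ± 0.13 for Herpud1, -0.04 ± 0.43 for Hspa1b and 0.60 ± 0.24 for Cirbp. The ectoderm arrays overlapped for each of these genes but Dnajb1. In 3 h mesoderm, acetazolamide against oil gave -1.12 for Hspa1b, -0.68 for Dnajb2, -0.60 for Xbp1, -0.58 for Dnajb1, -0.49 for Hspa1a, -0.33 for Herpud1 and 0.86 for Cirbp. None of these passed limma's test, with adjusted p of 0.38 or more. Atf6, the sensor described above, was at 0.52 ± 0.10 after acetazolamide and did pass (limma adjusted p 0.0484). Acetazolamide array 3 was the lowest of its group for Hspa1b, at 0.154 beside 0.760 and 0.831, and also for Hspa1a, Dnajb1, Dnajb2, Xbp1 and Herpud1. Without it the acetazolamide values were -0.33 for Hspa1b, -0.27 for Hspa1a, -0.38 for Dnajb1, -0.60 for Dnajb2, -0.12 for Xbp1, -0.10 for Herpud1 and 0.76 for Cirbp, an alternative chosen after seeing the data. By the same pairing, acetazolamide array 3 is a ratio to oil array 3 alone, so its low values cannot be placed on the treated or the oil array. For Cirbp, cadmium minus acetazolamide was -0.06 with an interval of -0.74 to 0.63, and for Dnajb1 it was 0.05 with an interval of -0.43 to 0.53. The intervals leave room for sizeable differences between the agents in either direction.

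**Figure D2:**
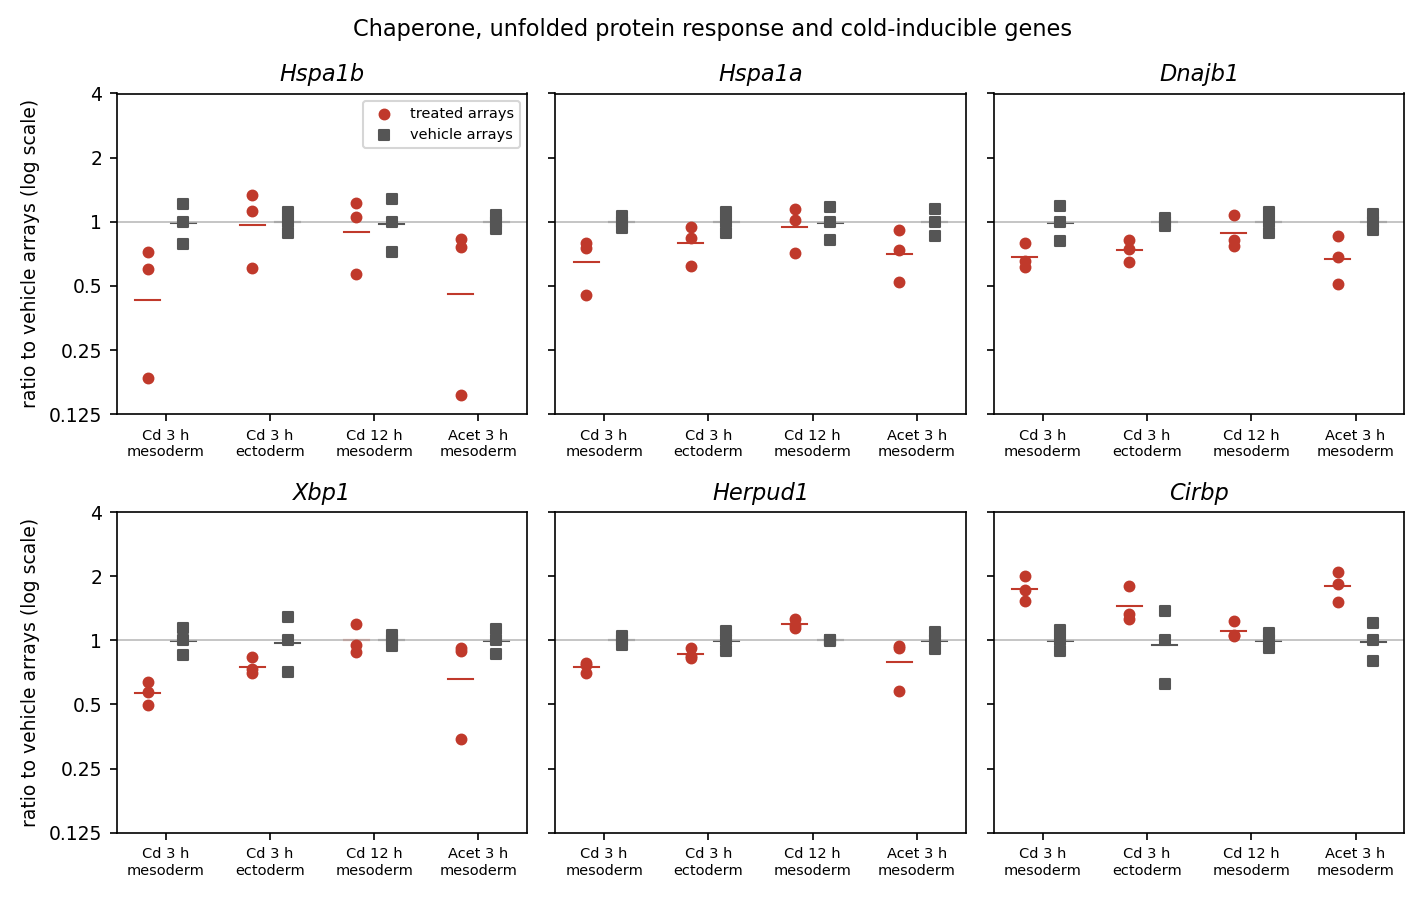
Ratio to vehicle arrays (log scale) for 6 genes in 4 comparisons: cadmium in 3 h mesoderm, cadmium in 3 h ectoderm, cadmium in 12 h mesoderm, and acetazolamide in 3 h mesoderm; red circles are treated arrays, grey squares their vehicle arrays, and short lines the means of log2 values. Cirbp is above its vehicle arrays in 3 h mesoderm after either agent, and is at 1.05 to 1.23 on the 12 h cadmium arrays.

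Genes known to answer metals differed little at 3 h. Mt2, a metallothionein (chromosome 8, 94172618 to 94173567), had 1.38, 1.12 and 1.13 on the cadmium arrays, against 1.09, 0.914 and 1 on the PBS arrays. The cadmium arrays were all higher, but by only 0.27 ± 0.22, with an interval of -0.18 to 0.72, and by 0.17 without cadmium array 1. Mt1, its neighbour (chromosome 8, 94178883 to 94180327), overlapped at 1.18, 1.03 and 0.960 on the cadmium arrays, against 1.05, 0.955 and 1 on the PBS arrays. Its difference was 0.07 ± 0.15, with an interval of -0.23 to 0.38. The intervals do not reach a 2-fold increase for either gene. Slc30a1, a zinc exporter that Mtf1 also switches on (chromosome 1, 191906697 to 191913248), had 1.25, 1.13 and 1.19 on the cadmium arrays, against 0.987, 1.01 and 1 on the PBS arrays. The groups did not overlap and the difference was small, 0.25 ± 0.07 (limma adjusted p 0.885). It was the only one of 19 measured genes on the metal list with an unadjusted p under 0.05, and the list median was -0.01.

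The metallothionein promoters are shown with the letters TGCNCNC in capitals on either strand (RefSeq, GRCm38.p6, plus strand, chr8:94172368-94172617 and chr8:94178839-94179088). These letters are a loose form of the core of the metal response element, with any base at N, so a match need not be an element. The Mt1 window lies mostly inside the gene's annotated span, before the start that the promoter table gives, and so leaves out most of the bases before the annotated start.
Mt2: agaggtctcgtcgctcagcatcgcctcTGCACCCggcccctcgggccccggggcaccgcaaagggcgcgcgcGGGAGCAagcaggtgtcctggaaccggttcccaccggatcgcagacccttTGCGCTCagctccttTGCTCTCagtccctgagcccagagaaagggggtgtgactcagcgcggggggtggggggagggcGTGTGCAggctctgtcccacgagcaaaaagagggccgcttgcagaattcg
Mt1: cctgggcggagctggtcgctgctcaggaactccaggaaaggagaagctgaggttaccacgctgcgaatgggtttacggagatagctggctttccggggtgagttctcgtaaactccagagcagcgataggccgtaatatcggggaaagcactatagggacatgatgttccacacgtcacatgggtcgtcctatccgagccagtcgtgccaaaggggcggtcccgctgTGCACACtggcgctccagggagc
The Mt2 window holds 5 matches, the Mt1 window 1 and the Slc30a1 window 1. These counts cannot be set against each other, since the Mt1 and Slc30a1 windows reach into the annotated genes and the Mt2 window does not. The Mt1 count says nothing of the bases further before its annotated start. The letters searched are few and loose, and 44.4% of all promoter windows hold them.

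Enzymes of cholesterol synthesis were the list with the lowest median. Msmo1, which removes methyl groups from sterols, had 0.622, 0.674 and 0.698 on the cadmium arrays, against 1.13, 0.873 and 1 on the PBS arrays, a difference of -0.58 ± 0.21. Cyp51, the lanosterol demethylase, had 0.791, 0.673 and 0.693 on the cadmium arrays, against 0.920, 1.08 and 1 on the PBS arrays, or -0.48 ± 0.21. Sqle, squalene epoxidase, had 0.737, 0.821 and 0.814 on the cadmium arrays, against 1.04, 0.964 and 1 on the PBS arrays, or -0.34 ± 0.13. In all 3 genes the groups did not overlap.

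Mvd, mevalonate diphosphate decarboxylase, was at -0.33 ± 0.15 and Idi1, the isomerase after it, at -0.31 ± 0.16, both with separate arrays. Fdps, which joins isoprene units, was at -0.13 ± 0.10. Hmgcs1, at the head of the pathway, was at -0.04 ± 0.17, and Insig1, the membrane protein that holds the sterol sensor back, at -0.10 ± 0.08, each with overlapping arrays. Of 22 measured genes of the list, 20 had a value below 0 (of all 8252 genes, 4098 did), 12 had all cadmium arrays below all PBS arrays beside 4.18% of all genes, and 6 were lower at an unadjusted p under 0.05 beside 1.71%. None passed after adjustment. The median difference was -0.13, and the list's median log2 ratio was -0.16, -0.15 and -0.28 on the cadmium arrays, against -0.06, 0.06 and 0 on the PBS arrays. In other comparisons the list's median was 0.00 for cadmium in 3 h ectoderm, -0.10 for cadmium in 12 h mesoderm and -0.07 for acetazolamide in 3 h mesoderm. The letters TCACNCCAC, of a sterol response element, were searched in the 250 bases before the starts of Msmo1, Cyp51, Mvd, Nsdhl and Tm7sf2. Each window held 0 matches, and 1.05% of all promoter windows hold the letters on either strand.

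**Figure D3:**
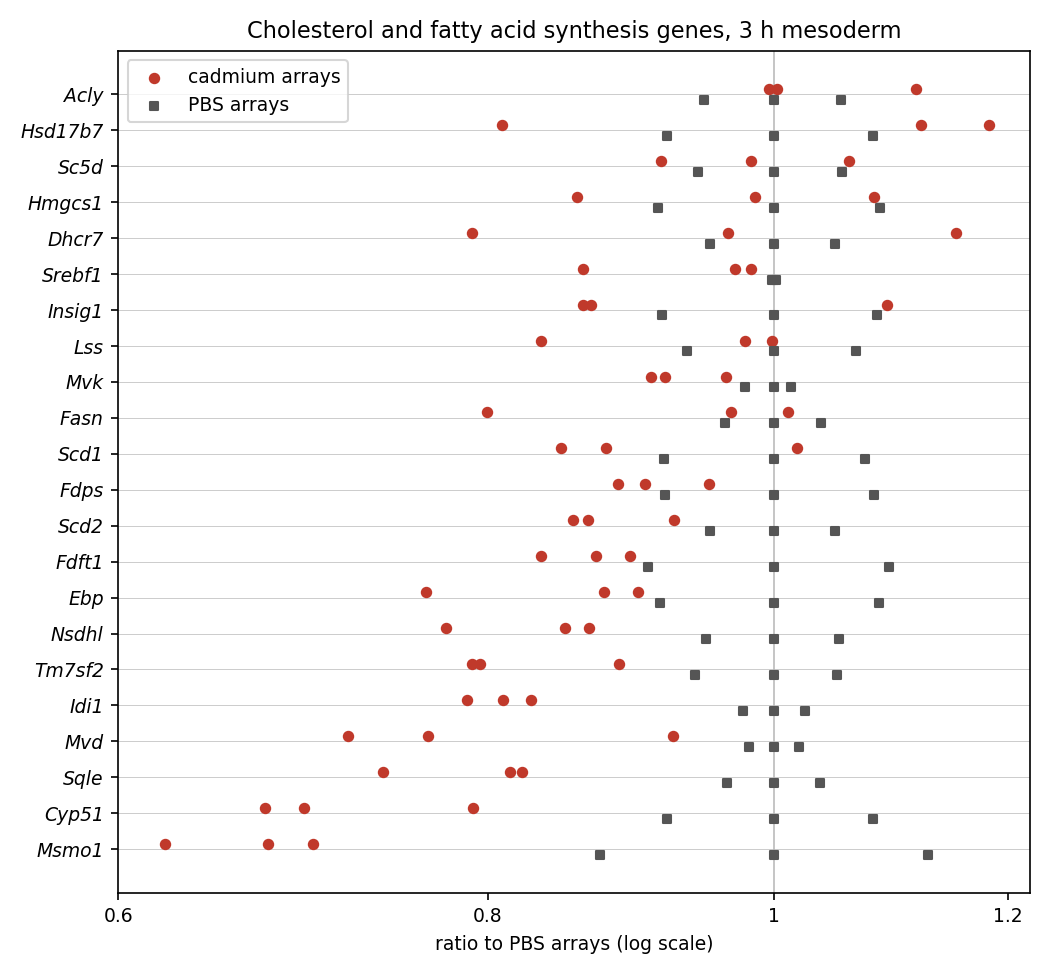
Ratio to PBS arrays (log scale) in 3 h mesoderm for the 22 measured genes of the cholesterol list, which also holds a few fatty acid enzymes; red circles are the 3 cadmium arrays, grey squares the 3 PBS arrays, and genes are ordered by their difference. For 12 genes all cadmium arrays lie left of all PBS arrays, and Msmo1 at the bottom is lowest, at 0.622 to 0.698.

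Of 34 measured genes of the surface ectoderm list, 28 had a value above 0 in the cadmium mesoderm, where 50.3% of all genes did, and none passed the test. Cldn7, a tight junction protein of epithelia, had 1.09, 1.28 and 1.95 on the cadmium arrays, against 1.07, 0.933 and 1 on the PBS arrays, a difference of 0.48 ± 0.17. Cadmium array 3 was highest, and cadmium array 1 barely cleared the PBS arrays. Without cadmium array 3 the difference was 0.24. Cldn6 was at 0.43 ± 0.16, Cldn4 at 0.41 ± 0.16 with overlapping arrays (0.20 without cadmium array 2), and Esrp1, an epithelial splicing factor, at 0.27 ± 0.11. Among the defining epithelial genes, Epcam was at 0.24 ± 0.16, Krt8 at 0.22 ± 0.19, Trp63 at 0.21 ± 0.22, Krt18 at 0.07 ± 0.11 and Cdh1 (E-cadherin) at 0.07 ± 0.10. The probe sets of Krt18 were at -0.07 and 0.21. Over the list, 4 genes were higher (1.38% of all genes were) and 0 lower (1.71%) at an unadjusted p under 0.05, and the median was 0.07. In 3 h ectoderm the list's median cadmium difference was 0.10. The list's median log2 ratio was 0.06, 0.07 and 0.10 on the cadmium arrays, against 0.01, -0.01 and 0 on the PBS arrays.

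Among ligands of the limb ectoderm no gene passed the test. Wnt6 had 1.20, 1.17 and 1.62 on the cadmium arrays, against 0.966, 1.03 and 1 on the PBS arrays, or 0.39 ± 0.17, and 0.24 without cadmium array 3. Wnt3, which is needed to form the apical ridge, had 1.17, 1.27 and 1.42 on the cadmium arrays, against 0.839, 1.16 and 1 on the PBS arrays, or 0.37 ± 0.12. Wnt10a was at 0.49 ± 0.17 (0.20 without PBS array 1), Fgf8 at 0.22 ± 0.20, Wnt7a, the dorsal signal, at 0.16 ± 0.14 and Fgf4 at -0.14 ± 0.16. Dlx2 was at 0.45 ± 0.21, set by the ratio of cadmium array 3 to PBS array 3, at 2.70 beside 1.02 and 0.913. It was -0.04 without either of those arrays. Of 25 measured genes of the apical ridge list, 17 had a value above 0 (50.3% of all genes did) and 4 were higher at an unadjusted p under 0.05 (1.38% of all genes were), with a median of 0.08. How far ectoderm carried over in the separation had a part in these values was not tested, and since no levels are kept it is not known which of these markers were near 0.

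Markers of other cells of the bud were slightly lower or did not stand apart. The median was -0.04 over 20 endothelial genes, with Pecam1 at -0.18 ± 0.15 and Kdr at 0.06 ± 0.15, and -0.04 over 18 red blood cell genes, with the embryonic globin Hbb-y at -0.19 ± 0.28 and the haem enzyme Alas2 at -0.06 ± 0.13. No gene of either list had an unadjusted p under 0.05. The macrophage receptor Adgre1 was at -0.16 ± 0.07 and the muscle precursor gene Eya2 at 0.37 ± 0.15, both with overlapping arrays. Without PBS array 1 these were -0.09 for Adgre1 and 0.23 for Eya2. They were the only members of their lists with an unadjusted p under 0.05. Of the muscle precursor list, 10 of 15 measured genes had a value below 0, with a median of -0.03, so Eya2 went against its list. Of the macrophage list 12 of 19 did, with a median of -0.03, and of all 8252 genes 4098 did.

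The genes that pattern the limb mesoderm showed no difference that passed the test. Shh had 1.02, 0.863 and 1.19 on the cadmium arrays, against 0.954, 1.05 and 1 on the PBS arrays, a difference of 0.02 ± 0.09 with an interval of -0.16 to 0.20. Its receptor and target Ptch1 was at 0.25 ± 0.15, with 0.58 for one probe set and -0.08 for the other, its target Gli1 at 0.17 ± 0.14 and the repressor Gli3 at -0.10 ± 0.09. Hand2, which lies upstream of Shh, was at -0.05 ± 0.11. Fgf10, the mesodermal signal to the ridge, had 0.929, 0.942 and 0.878 on the cadmium arrays, against 1.06, 0.941 and 1 on the PBS arrays, or -0.12 ± 0.07.

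Prrx1, a limb mesoderm transcription factor, was at -0.11 ± 0.11, the dorsal factor Lmx1b at 0.07 ± 0.11 and Bmp4 at 0.06 ± 0.14. The probe sets of Bmp4 were at 0.22 and -0.10. No gene of the Hedgehog (12 measured), FGF (15), BMP (26) or limb mesoderm factor (26) lists had an unadjusted p under 0.05. For Shh, Gli3, Hand2, Fgf10, Prrx1, Lmx1b and Bmp4 the interval reached 0.34 or less to either side after rounding. It was wider for Ptch1, at -0.05 to 0.55, and for Gli1, at -0.12 to 0.45.

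Among Hox genes, which give cells their position along the limb, 6 of 30 measured were lower (1.71% of all genes were) and 1 higher (1.38%) at an unadjusted p under 0.05, with a median of -0.05. The arrays did not overlap for 4 of the 30, 2 with all cadmium arrays below and 2 with all above. Hoxa10 had 0.715, 0.677 and 0.774 on the cadmium arrays, against 1.20, 0.805 and 1 on the PBS arrays, a difference of -0.45 ± 0.16 without overlap. Hoxa9, its neighbour, was the furthest from 0 at -0.94 ± 0.36, but its PBS arrays were scattered. It had 0.402, 0.350 and 0.687 on the cadmium arrays, against 1.56, 0.442 and 1 on the PBS arrays. Hoxd1 at -0.38 ± 0.16 and Hoxd8 at -0.36 ± 0.16 overlapped too, and the probe sets of Hoxd8 disagreed at -0.11 and -0.62. Without PBS array 1 the difference was -0.28 for Hoxa10, -0.37 for Hoxa9 and -0.06 for Hoxd8, and without cadmium array 3 it was -0.63 for Hoxd1. In the retinoic acid pathway, the degrading enzyme Cyp26a1 was at 0.47 ± 0.18 and the retinol carrier receptor Stra6 at 0.28 ± 0.11, both with overlapping arrays. Cyp26a1 was at 0.17 without PBS array 1, and Stra6 at 0.18 without cadmium array 2 and 0.45 without cadmium array 3.

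**Figure D4:**
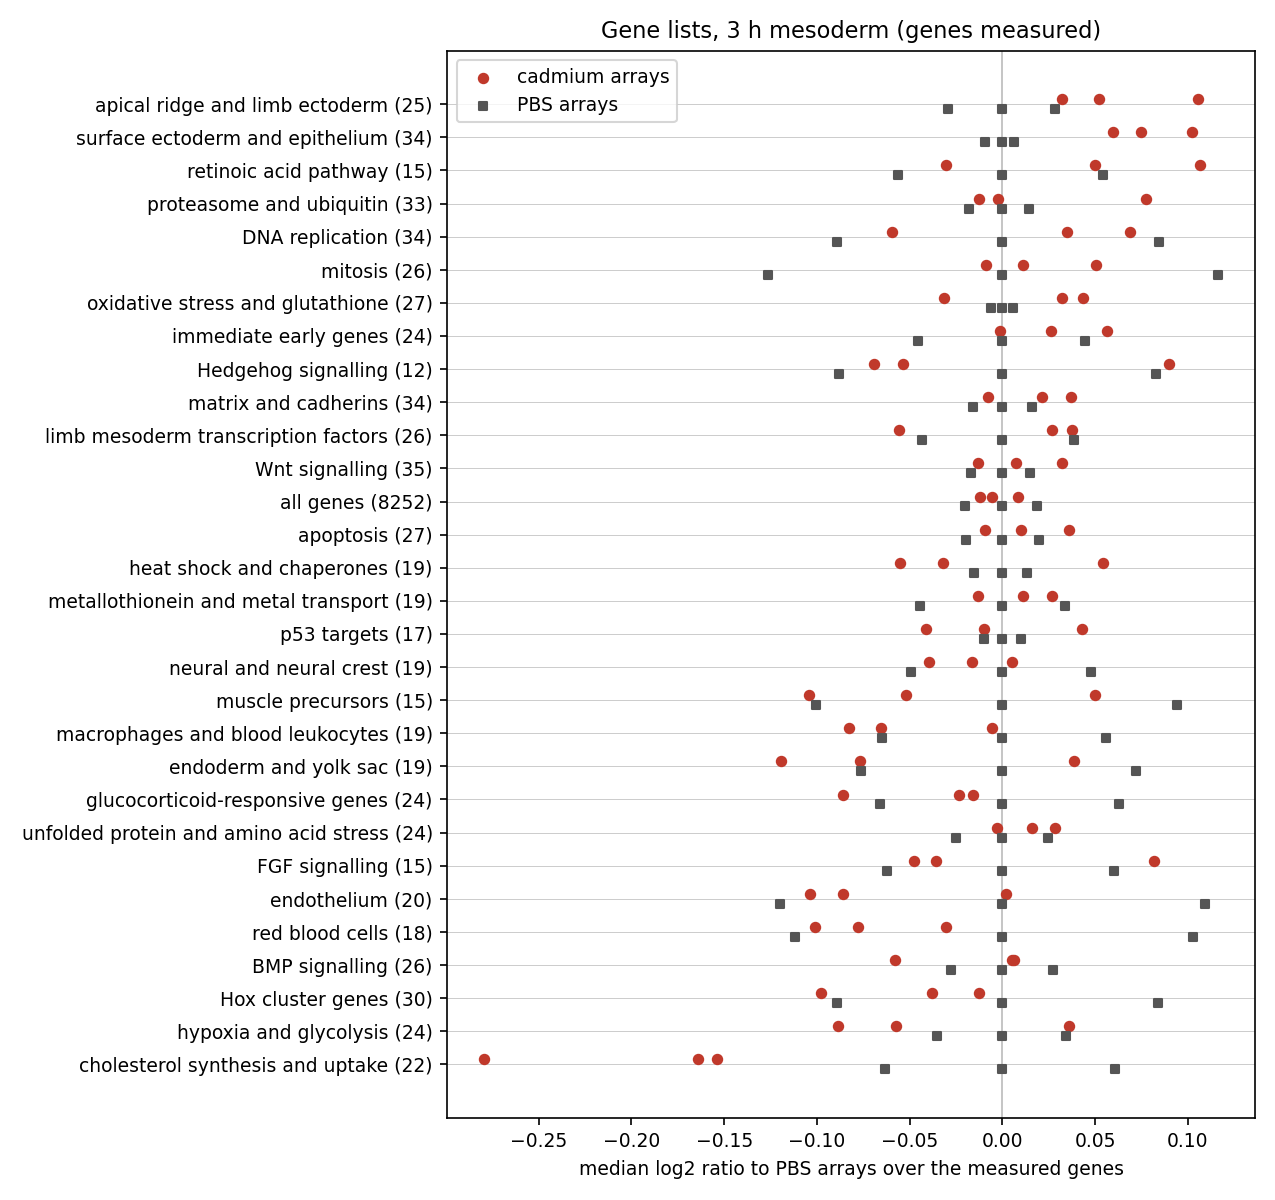
Median log2 ratio to PBS arrays over the measured genes of each of 29 lists and over all genes in 3 h mesoderm (number of genes in brackets); red circles are the 3 cadmium arrays and grey squares the 3 PBS arrays. The cholesterol list lies lowest on the cadmium arrays, at -0.28 to -0.15, and the surface ectoderm list lies above its PBS arrays, at 0.06 to 0.10.

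No gene of the oxidative stress, p53 target or apoptosis lists passed the test. Hmox1, which cadmium is known to induce in many cells, had 0.858, 1.06 and 0.941 on the cadmium arrays, against 1.17, 0.826 and 1 on the PBS arrays, or -0.06 ± 0.11 with an interval of -0.29 to 0.17. Gclc, which makes the glutathione precursor, was at -0.10 ± 0.08, and the peroxide-reducing enzyme Gpx1 at -0.21 ± 0.10, which was -0.09 without PBS array 1. Among the p53 targets, arrays overlapped for Ccng1 at -0.05 ± 0.28, the cell cycle inhibitor Cdkn1a at -0.28 ± 0.21 and Phlda3 at -0.19 ± 0.21, whereas Plk2, named after its value was seen, had all cadmium arrays above all PBS arrays at 0.28 ± 0.21. None of 17 p53 targets had an unadjusted p under 0.05. The caspase gene Casp8, a starter of apoptosis, was at 0.24 ± 0.11, the proteasome subunit Psmb5 at -0.14 ± 0.07 (-0.07 without PBS array 1) and the mitotic enzyme Ube2c at -0.14 ± 0.06. Their lists did not follow them. The median was -0.004 over 27 apoptosis genes. It was 0.03 over 33 proteasome genes, 20 of them above 0, and 0.03 over 26 mitosis genes, 15 of them above 0. The immediate early gene Egr1 was at -0.20 ± 0.08, with -0.02 and -0.38 for its probe sets and -0.08 without cadmium array 1, and Fos at -0.18 ± 0.14. The lists of hypoxia and glycolysis, DNA replication, glucocorticoid response, matrix and cadherins, neural cells, and endoderm had 0 genes at an unadjusted p under 0.05 in limma, with medians from -0.05 to 0.03.

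The remaining genes with the largest differences belonged to none of the lists. Rgs2, a brake on G protein signalling, had 0.833, 0.611 and 0.600 on the cadmium arrays, against 1.04, 0.958 and 1 on the PBS arrays, or -0.57 ± 0.17. Tmem45a was at -0.55 ± 0.26 (-0.28 without cadmium array 1) and the RNA polymerase II subunit Polr2c at -0.45 ± 0.21 (-0.23 without cadmium array 2). On the higher side, Mnt, a Max partner that opposes Myc, had 1.36, 1.70 and 1.11 on the cadmium arrays, against 0.988, 1.01 and 1 on the PBS arrays, or 0.46 ± 0.16. Fez2 was at 0.40 ± 0.10, the haem oxygenase Hmox2 at 0.39 ± 0.12, Crybg1 at 0.38 ± 0.15, the translation factor Eif4g2 at 0.37 ± 0.18 and Rsl24d1, of ribosome assembly, at 0.37 ± 0.17. Without PBS array 1 they were 0.22 for Crybg1 and 0.25 for Eif4g2, and without cadmium array 2 Rsl24d1 was at 0.20. Cyb561 was at 0.37 ± 0.10, but its probe sets disagreed at 0.66 and 0.08.

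The tissues were compared in how they answered cadmium at 3 h. Cadmium effect in mesoderm minus that in ectoderm gave 0 genes past limma's adjusted threshold (0%) and 68 at an unadjusted p under 0.05. The sources do not say whether both tissues came from the same embryos, and the ectoderm arrays entered the spread by which genes were named. Of the 24 genes named for the size of their difference, 23 had the same sign in ectoderm (95.8%), where 63.1% of all genes did. Of all 159 genes with an unadjusted p under 0.05 and separate arrays at 3 h in mesoderm, 127 did (79.9%). The 12 lower genes had a median of -0.33 in ectoderm and the 12 higher genes one of 0.33. Wnt3 was at 0.58 ± 0.14 there, Cyp51 at -0.55 ± 0.25, Mnt at 0.40 ± 0.19 and Fez2 at 0.33 ± 0.12, none past the test.

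The agents were compared in 3 h mesoderm. Cadmium effect minus acetazolamide effect gave 0 genes past the adjusted threshold in limma (0%) and 232 at an unadjusted p under 0.05, with a smallest adjusted p of 0.231. Of the 24 genes, 18 had the same sign after acetazolamide (75%), where 58.8% of all genes did, and of the 159 genes 114 did (71.7%). Rgs2 was at 0.24 ± 0.22 after acetazolamide and Msmo1 at 0.01 ± 0.28. For Rgs2 the difference between the agents was -0.81 with an interval of -1.38 to -0.24, but its adjusted p was 0.999.

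The times were compared in mesoderm, where cadmium at 12 h changed 188 genes (2.28%). The difference of cadmium effects, 3 h minus 12 h, passed for 38 genes (0.46%), 25 with the higher value at 3 h and 13 with the lower. With each array centred on its median, 24 passed, 11 higher and 13 lower. The count was 1 without weights, 1 with only the first and second arrays, 1 with only the arrays compared, 62 without the denominator block, 76 with the replicate block and 5 to 95 with single arrays left out. It was 5 without cadmium array 1 of 3 h, 7 without array 3 of either group and time, 13 without cadmium array 2 of 3 h, 17 without cadmium array 2 of 12 h, 71 without PBS array 1 or 2 of 3 h and 95 without cadmium array 1 of 12 h. The 3 h and 12 h effects have separate cadmium and PBS arrays. Of the 24 genes named for their size at 3 h, 19 had the same sign at 12 h (79.2%), where 47.3% of all genes did, and of the 159 genes 82 did (51.6%).

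Mt2 differed most. Its ratios above lay slightly over 1 at 3 h, whereas at 12 h they were 0.103, 0.129 and 0.175 on the cadmium arrays, against 0.662, 1.34 and 1 on the PBS arrays. The 3 h minus 12 h difference was 3.13 ± 0.30 (limma adjusted p 4.4e-07) and passed under all 20 alternatives. Mt1 differed in the same direction by 0.84 but did not pass (adjusted p 0.0649). Slc30a1 was 0.900, 0.807 and 0.875 on the 12 h cadmium arrays, against 1.01, 0.990 and 1 on the 12 h PBS arrays, and its 3 h minus 12 h difference was 0.47 ± 0.09 (limma adjusted p 0.0228). That call was lost without cadmium array 1 or 3 or PBS array 3 of 3 h, or without cadmium array 2 or 3 or PBS array 3 of 12 h.

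Cdkn1a, Phlda3 and Ccng1, targets of p53, differed in the other direction. Of 17 measured p53 targets 4 passed in that direction and 0 in the other, where 13 and 25 of all 8252 genes did. The fourth was Zmat3, named after its value was seen. Cdkn1a had 2.35, 3.27 and 3.38 on the 12 h cadmium arrays, against 1.05, 0.950 and 1 on the 12 h PBS arrays, and its 3 h minus 12 h difference was -1.85 ± 0.28 (limma adjusted p 0.00203). Phlda3 differed by -1.73 ± 0.28 (0.00323), and both passed without any single array. Ccng1 differed by -1.99 ± 0.38 (0.0202), a call lost without cadmium array 1, cadmium array 3 or PBS array 3 of 3 h. Of the genes of the unfolded protein response, Herpud1 was lower at 3 h and had 1.17, 1.15 and 1.26 on the 12 h cadmium arrays, against 0.994, 1.01 and 1 on the 12 h PBS arrays. Its difference was -0.67 ± 0.15 (0.0330), and it was lost when any of 8 arrays was left out, all but PBS arrays 1 and 2 of 3 h and cadmium array 1 and PBS array 1 of 12 h. Atf6 differed by 0.53 ± 0.11 (0.0230), a call lost without cadmium array 1 or 2 of 3 h, or cadmium array 2 or 3 or PBS array 3 of 12 h.

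**Figure D5:**
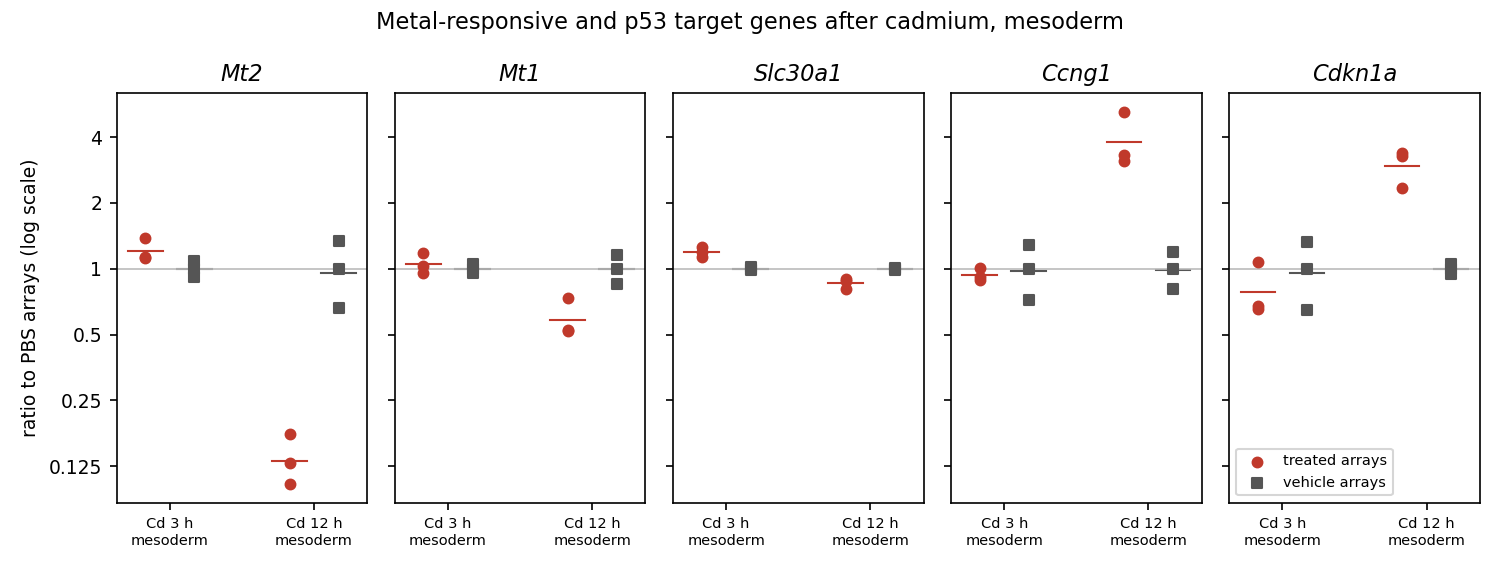
Ratio to PBS arrays (log scale) in mesoderm at 3 h and 12 h for Mt2, Mt1, Slc30a1, Ccng1 and Cdkn1a; red circles are cadmium arrays, grey squares PBS arrays of the same time, and short lines the means of log2 values. At 12 h Mt2 lies at 0.103 to 0.175 and Cdkn1a at 2.35 to 3.38 on the cadmium arrays, while at 3 h Mt2 lies at 1.12 to 1.38 and Cdkn1a at 0.656 to 1.08.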

How the data were processed

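RNA of 48 Affymetrix arrays in 16 groups of 3 was available as a series table of 12488 probe sets. The deposited values are a linear ratio to the matching vehicle arrays, as the values show: in each comparison vehicle arrays 1 and 2 sum to 2 and vehicle array 3 is 1. The summarisation and scaling steps before the ratio are not given in the sources used here. That treated arrays share these denominators is an inference.

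Ratios were converted to log2 and probe sets naming 1 gene in the platform annotation were averaged, giving 8252 genes, 2076 with several probe sets. The 396 probe sets naming several genes and the 1237 naming none were tested apart, with 0 calls. Symbols were matched through Entrez identifiers for 10839 probe sets. limma 3.58.1 in R 4.3.3 was fitted to all 48 arrays, with 16 denominator means, 8 agent effects, 24 residual degrees of freedom, 1 precision weight per comparison and eBayes without trend. Benjamini-Hochberg adjustment ran over all genes, with a threshold of 0.05 and intervals at 95%. The fit was also run on simulated data drawn with the spread and denominators that it assumes, which cannot show whether these hold for the arrays. On the log2 scale, array medians in 3 h mesoderm were -0.01, -0.01 and 0.01 for cadmium, against 0.02, -0.02 and 0 for PBS. Signal over background is not known for any probe set, and 3 arrays in a group limit the precision. The log2 difference between 3′ and 5′ control probe sets, cadmium minus PBS, was -0.08 for Actb and -0.03 for Gapdh.

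The named genes were the 12 largest higher and the 12 largest lower genes with an unadjusted p under 0.05 and separate arrays. Each of 29 lists gave up to 4 members with an unadjusted p under 0.05, largest difference first, whether or not their arrays overlapped. A standing list of markers was added, and up to 8 genes past the threshold in each difference of effects. Atf6 and Herpud1 entered the last comparison from the lists. Members, lists, design and weights were chosen with earlier results of these data known. Alternatives covered the denominators, weights, arrays, centring, replicate block, probe set handling and prior. Promoter sequences are those of RefSeq on GRCm38.p6.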

Additional observations from a re-analysis of the deposited data

Results flagged for a closer look

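In mesoderm, 10 of the named genes had cadmium effects at 3 h and 12 h that differed by limma's test of the difference itself, with adjusted p from 4.4e-07 to 0.0330. All but Mt2 failed to pass without weights, with only the first and second arrays, or with only the arrays compared. On the log2 scale, 3 h minus 12 h, the difference was 3.13 for Mt2, 0.47 for Slc30a1 and 0.53 for Atf6, and -1.99 for Ccng1, -1.85 for Cdkn1a, -1.73 for Phlda3 and -0.67 for Herpud1. Nek7, a mitotic kinase that is also part of the inflammasome, differed by 1.16 ± 0.19. It had 1.07, 1.26 and 1.06 on the 3 h cadmium arrays, against 0.897, 1.10 and 1 on the 3 h PBS arrays, and 0.560, 0.516 and 0.443 on the 12 h cadmium arrays, against 1.05, 0.947 and 1 on the 12 h PBS arrays. R3hcc1 differed by 0.58 ± 0.10, with a 3 h effect of 0.09 and a 12 h effect of -0.49, and did not pass without cadmium array 1 of 3 h. Gja4, a gap junction protein of vessel walls, differed by -0.87 ± 0.17, with a 3 h effect of -0.02 and a 12 h effect of 0.85, and did not pass without cadmium array 3 or PBS array 3 of either time.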

How the results depend on the processing

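The count of genes called between cadmium and PBS at 3 h in mesoderm was 0 under all alternatives but 1, and ran from 0 to 13 when single arrays were left out. Mesoderm minus ectoderm gave 0 calls throughout. Cadmium minus acetazolamide gave 0 to 2 calls, 2 without array 3 of cadmium or of PBS and 1 without oil array 1, and 0 otherwise. The 3 h minus 12 h count of 38 was 62 without the denominator block, 1 without weights, 1 with only the first and second arrays, 1 with only the arrays compared, 24 with centred arrays, 76 with the replicate block, and 5 to 95 with single arrays left out, and the causes were not tested, though some of these fits hold fewer arrays. The replicate block gave 0 calls in the other 3 comparisons. The difference between arrays 1 and 2 correlated at 0.0634 between cadmium and PBS at 3 h in mesoderm, 0.0414 at 3 h in ectoderm and 0.651 at 12 h in mesoderm, and at 0.551 between acetazolamide and oil at 3 h in mesoderm. Since 2 of these 4 were under 0.1, the numbers were not taken to pair the samples.

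For 85 named genes under 14 alternatives, 1148 of 1190 values kept direction and side of the threshold, 5 passed the threshold (all without PBS array 1) and 37 changed sign, all in genes that had not passed. Leaving out 1 array moved the value by over 1.5 times for 58 of the 85 genes. With only the first and second arrays the log2 difference was -0.037 for Dlx2, 0.16 for Hsph1, 0.0039 for Ccng1, -0.093 for Shh, 0.051 for Hmgcs1 and 0.14 for Gja4. With single arrays left out it ran from -0.037 to 0.70 for Dlx2, -0.0033 to 0.14 for Mt1, -0.21 to 0.080 for Hmox1, -0.31 to 0.16 for Hsph1, -0.21 to 0.041 for Ddit3, -0.31 to 0.17 for Ccng1, -0.52 to 0.067 for Cdkn1a, -0.093 to 0.12 for Shh, -0.16 to 0.070 for Hand2, -0.074 to 0.21 for Bmp4, -0.0060 to 0.13 for Lmx1b, -0.14 to 0.051 for Hmgcs1, -0.21 to 0.0057 for Insig1, -0.39 to 0.10 for Pecam1, -0.14 to 0.20 for Kdr and -0.13 to 0.14 for Gja4. Medians of the lists and of all genes moved by less than the spread between arrays in 228 of 270 values. The 10 genes of the 3 h minus 12 h difference kept their sign in 200 values and their call in 146.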
